A study of Homo sapiens with 6 samples.

Results

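The genes described here are the 10 that carry cystine import, glutathione synthesis and recycling, and the NRF2 oxidative stress response. They are SLC7A11, SLC3A2, GCLC, GCLM, GSS, GSR, NFE2L2, NQO1, HMOX1 and TXNRD1. They were chosen by name, because cancers without ARID1A are known for low SLC7A11 and low glutathione, and all 10 were found among the 57820 genes listed in the deposited tables. RNA-seq was done on 3 WT and 3 ARID1A-KO samples of AID-DIvA cells, numbered 3 to 5 in each genotype. AID-DIvA cells are U2OS osteosarcoma cells with an integrated vector for the AsiSI nuclease, which cuts DNA only once tamoxifen sends it into the nucleus. Both genotypes carry this vector and were left untreated, so no breaks were induced. The knockout was made with Cas9 and separately designed guide RNAs against ARID1A and taken on as clones. The sources used here do not say whether the guides were used together, nor which clone was sequenced. An effect of ARID1A loss and a difference between cell clones cannot be told apart in this design.

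Reverse-stranded counts totalled 54512105 to 84088708 per sample, and every one of the 10 genes had at least 1490 counts in each sample. ARID1A itself averaged 173 ± 6.67 CPM, the normalized read count scaled to library size, in WT and 25.9 ± 1.38 CPM in the knockout (SD, n = 3 each), a log2 fold change of -2.74. Of 9 osteoblast lineage markers, 6 passed the filter on low counts. SP7, BGLAP and IBSP did not, and COL1A2 stayed at or below 0.0804 TPM, a level scaled to transcript length and library size. The summed TPM of the 9 markers was 716 to 759 in WT and 393 to 440 in ARID1A-KO samples, and the part of this difference in the results below was not tested. Most of this sum came from SPARC (266 to 540 TPM) and COL1A1 (85.8 to 153 TPM), while RUNX2 had 4.42 to 7.79 TPM. Among markers of other cell types, 3 epithelial genes summed to 6.24 to 9.64 TPM. Most of that was EPCAM (5.58 to 9.29 TPM), whose range overlapped that of RUNX2. For 3 blood genes the sum was at most 0.984 TPM. Nothing in the labels says that the samples of a genotype came from separate cultures. The paper's legends to its RNA-seq panels name 3 independent experiments as biological replicates, without further detail. The p-values measure only the spread between these samples.

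Cells take up cystine, the oxidized pair of cysteine, through an antiporter made of the transport chain SLC7A11 and the heavy chain SLC3A2. Cysteine is the limiting building block of glutathione, which glutamate-cysteine ligase (GCLC with its modifier GCLM) and glutathione synthetase (GSS) assemble and glutathione reductase (GSR) keeps reduced. NFE2L2 encodes NRF2, a transcription factor that KEAP1 marks for degradation in unstressed cells and that, with small MAF partners, binds antioxidant response elements. NQO1, HMOX1, TXNRD1, GCLC, GCLM and SLC7A11 are among its best known target genes. BACH1 is a repressor that competes for the same elements, above all at HMOX1, and ATF4 drives SLC7A11 when amino acids run short.

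In ARID1A-KO cells, HMOX1 RNA was 3.08-fold that of WT cells, the largest difference among the 10 genes. NQO1 (1.35-fold), SLC3A2 (1.31-fold) and GSS (1.26-fold) were higher too. SLC7A11 had 0.651 times its WT level, with all ARID1A-KO samples below all WT samples, but its adjusted p of 0.0525 missed the threshold of 0.05 in edgeR's quasi-likelihood test. GCLC, GCLM, GSR, NFE2L2 and TXNRD1 did not pass the test either. Thus 4 of the 10 genes were higher and 0 were lower at an adjusted p under 0.05. Of the 19599 genes tested, 36.3% passed, 17.9% higher and 18.4% lower, so 4 of 10 is close to the share of all genes. The count fell to 2 of 10 when ARID1A-KO replicate 3 or ARID1A-KO replicate 4 was left out. Calls over all genes fell as well, from 7107 of 19599 to 5756 of 20106 and 5282 of 20158. At an unadjusted p under 0.05, 4 were higher and 1, SLC7A11, was lower. The share of all genes at that looser threshold was not counted, but it is at least 36.3%. The DESeq2 Wald test also called 4 higher and 1 lower of the 10. Over all genes it called 6884 of 19599, 3314 higher and 3570 lower. The median log2 fold change of the 10 genes was 0.071, against 0.0066 over all genes tested.

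**Figure D1:**
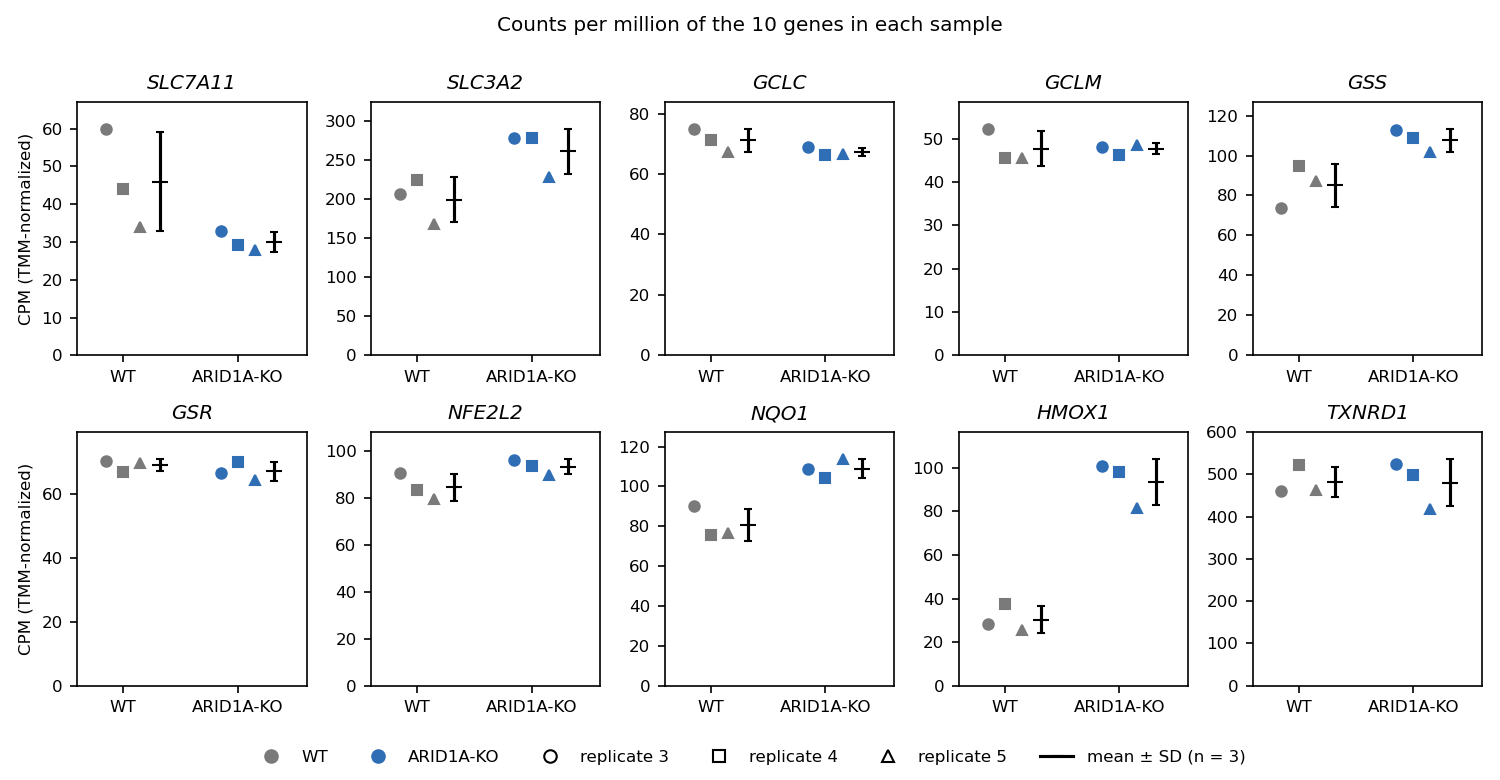
TMM-normalized CPM of the 10 genes (y axes, each from 0) in WT (grey) and ARID1A-KO samples (blue), with symbols for the replicate numbers and bars for the mean ± SD (n = 3). HMOX1 lies at 25.6 to 37.3 CPM in WT and 81.5 to 101 in ARID1A-KO samples, while GCLM and TXNRD1 overlap between the genotypes.

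The genotypes did not overlap in CPM for 5 of the 10 genes (SLC7A11, SLC3A2, GSS, NQO1 and HMOX1), which is the share found over all genes tested (49.5%). RNA was measured in bulk, so fewer cells with a transcript and less of it per cell cannot be told apart. Neighbouring genes mostly shared 1 direction around SLC7A11 and NQO1, so the median log2 fold change of the other tested genes within 5 Mb is given beside each of the 10 genes. Where this median was taken off, it was treated as known, so the p-values leave out its own error and the spread of the neighbours.

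SLC7A11, the cystine and glutamate exchanger, lies on chromosome 4 from 139085251 to 139163503 in GRCh37, on the minus strand. It had 59.9, 44.1 and 33.9 CPM in WT replicates 3, 4 and 5 and 33.0, 29.1 and 27.8 CPM in the ARID1A-KO replicates of the same numbers. All ARID1A-KO values were below the lowest WT value, but WT replicate 5 came close to ARID1A-KO replicate 3, and the WT samples varied widely (coefficient of variation 28.5%, against 8.99% in ARID1A-KO). This gave a log2 fold change of -0.62 (SE 0.20) and an adjusted p of 0.0525 in edgeR's quasi-likelihood test. The call turned on single samples, the tool, the filter and the model. The adjusted p was 0.0425 without WT replicate 3, 0.00443 without WT replicate 5 and 0.000929 with the DESeq2 Wald test. With all samples in edgeR's test, it was 0.0492 with at least 10 counts required in every sample. It was 0.00217 with the replicate number added to that fit as a block. Over all alternatives it ran from 0.000929 to 0.89. Among its 27 tested neighbours, 24 had a negative and 3 a positive log2 fold change, 20 were called lower and 1 higher, and their median was -0.58. With that median taken off, SLC7A11 was left with -0.044 (adjusted p = 0.89, edgeR).

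SLC3A2, the heavy chain that SLC7A11 shares with other amino acid exchangers, lies on chromosome 11 from 62623518 to 62656352. Its values were 206, 224 and 168 CPM in WT and 278, 278 and 228 CPM in ARID1A-KO replicates 3, 4 and 5. Every ARID1A-KO sample was above every WT sample, though ARID1A-KO replicate 5 lay only just over WT replicate 4. On the log2 scale SLC3A2 rose by 0.39 (SE 0.12, adjusted p = 0.0281, edgeR's quasi-likelihood test), opposite in sign to that of SLC7A11. The call was lost without WT replicate 3 (adjusted p = 0.0653), WT replicate 5 (0.0731), ARID1A-KO replicate 3 (0.0917) or ARID1A-KO replicate 4 (0.094). Its 242 tested neighbours had a median of 0.099, which left 0.29 once subtracted (adjusted p = 0.0879, edgeR).

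**Figure D2:**
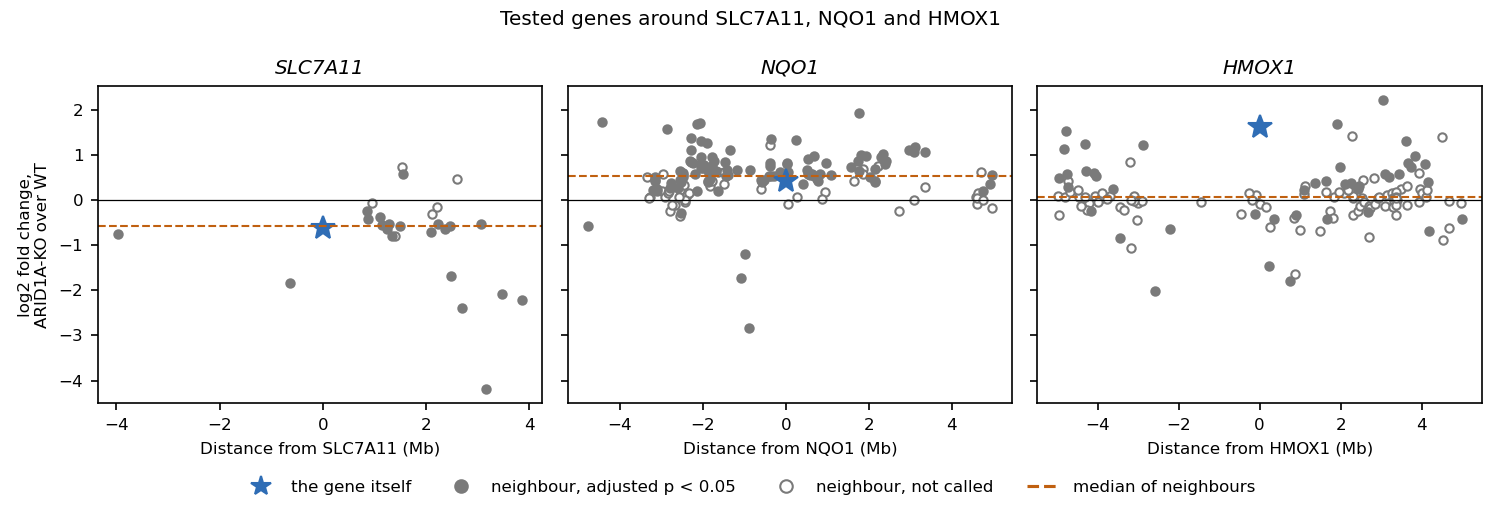
log2 fold change (ARID1A-KO over WT, y axis) of the tested genes within 5 Mb of SLC7A11, NQO1 and HMOX1, by their distance from it in Mb (x axis). Stars mark the gene itself, filled circles neighbours with an adjusted p under 0.05, and dashed lines the neighbours' medians of -0.58, 0.55 and 0.072. SLC7A11 and NQO1 sit near these lines and HMOX1, at 1.62, far above.

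Among the genes of glutathione synthesis, GSS changed and the subunits of glutamate-cysteine ligase did not pass the test. GSS, which joins glycine to gamma-glutamylcysteine, lies on chromosome 20 from 33516236 to 33543620. It had 73.5, 94.6 and 87.3 CPM in WT and 113, 109 and 102 CPM in ARID1A-KO replicates 3, 4 and 5, without overlap. On the log2 scale GSS rose by 0.34 (SE 0.09, adjusted p = 0.0153, edgeR's quasi-likelihood test). Leaving out ARID1A-KO replicate 3 gave an adjusted p of 0.0567, and leaving out ARID1A-KO replicate 4 gave 0.0503. The 117 tested neighbours had a median of 0.22, and with it taken off GSS was left with 0.12 (adjusted p = 0.34).

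GCLC, the catalytic subunit of glutamate-cysteine ligase and the rate-limiting step of glutathione synthesis, had 67.3 to 74.9 CPM in WT and 66.2 to 68.9 in ARID1A-KO samples. The log2 difference of GCLC was -0.081 (SE 0.06, adjusted p = 0.347, edgeR), while its 38 neighbours had a median of -0.26, 11 of them called lower. With that median taken off, the sign turned to 0.18 (adjusted p = 0.0535, edgeR). GCLM, the modifier subunit, had a mean of 47.8 CPM in WT and of 47.7 CPM in the knockout, and its log2 fold change was near 0 (-0.0011, SE 0.07, adjusted p = 0.993, edgeR). Its 61 neighbours had a median of -0.10. GSR, which regenerates reduced glutathione with NADPH, averaged 69.2 ± 1.91 CPM in WT and 67.2 ± 2.98 CPM in the knockout (SD, n = 3 each), with a log2 fold change of -0.042, and its 51 neighbours had a median of -0.026. The WT and ARID1A-KO samples of these 3 genes overlapped. With any sample left out, the log2 fold change largest in size among these 3 genes was -0.122, for GCLC without WT replicate 5.

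NFE2L2 did not pass the test. It had 90.7, 83.3 and 79.2 CPM in WT and 96.2, 93.5 and 89.8 CPM in ARID1A-KO replicates 3, 4 and 5, so WT replicate 3 lay above ARID1A-KO replicate 5. The log2 difference of NFE2L2 was 0.14 (SE 0.07, adjusted p = 0.128, edgeR's quasi-likelihood test), and the gene was called in 0 of 13 alternatives. Its 66 neighbours had a median of 0.070, and subtracting it left 0.073. These are RNA levels, and NRF2 is controlled mainly through the stability of its protein, which RNA-seq does not measure.

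HMOX1 encodes heme oxygenase, which breaks heme down to biliverdin, iron and carbon monoxide, and lies on chromosome 22 from 35776354 to 35790207. It had 28.1, 37.3 and 25.6 CPM in WT and 101, 98.2 and 81.5 CPM in ARID1A-KO replicates 3, 4 and 5. The lowest ARID1A-KO sample was thus far above the highest WT sample. HMOX1 rose by 1.62 on the log2 scale (SE 0.15, adjusted p = 0.000109, edgeR's quasi-likelihood test). It stayed between 1.51 and 1.80 over all alternatives and was called in 13 of 13. The 135 tested neighbours had a median of 0.072, and with it taken off 1.55 was left (adjusted p = 0.000187).

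NQO1, a quinone reductase and a common readout of NRF2 activity, lies on chromosome 16 from 69740899 to 69760854. Its values were 90.1, 75.8 and 76.5 CPM in WT and 109, 104 and 114 CPM in ARID1A-KO replicates 3, 4 and 5, with no overlap. NQO1 rose by 0.43 on the log2 scale (SE 0.08, adjusted p = 0.00186, edgeR's quasi-likelihood test). Of 153 tested, 138 had a positive log2 fold change and 98 were called higher, and the median was 0.55. Once this was subtracted, NQO1 turned to -0.12 (adjusted p = 0.28).

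TXNRD1, the cytosolic thioredoxin reductase and another NRF2 target, was the most abundant of the 10 genes and did not pass the test. It had 461, 522 and 462 CPM in WT and 524, 499 and 418 CPM in ARID1A-KO replicates 3, 4 and 5. The ARID1A-KO samples spanned both ends of the range, and the log2 fold change was -0.0046 (SE 0.09, adjusted p = 0.976, edgeR). Its 64 neighbours had a median of -0.061.

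**Figure D3:**
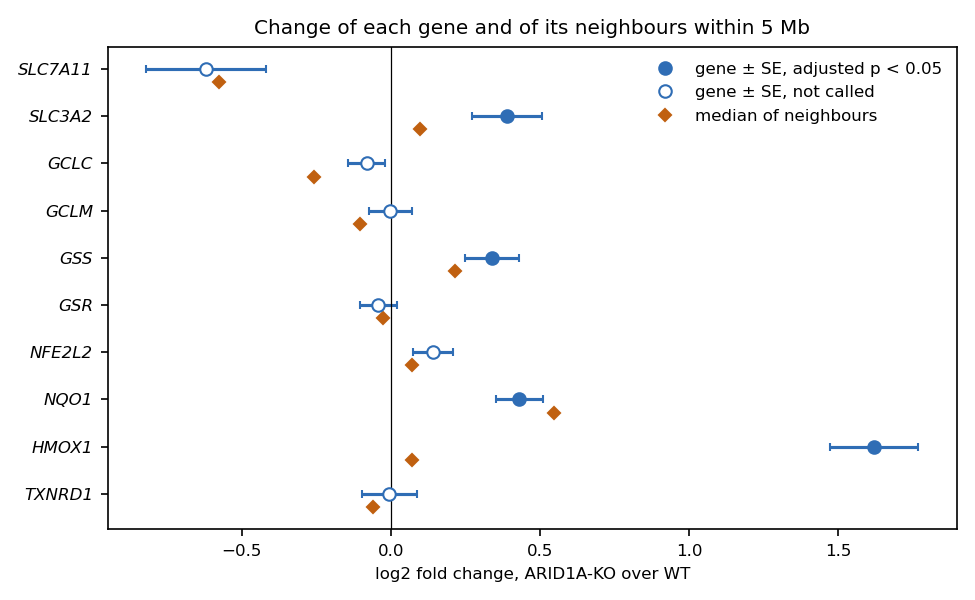
log2 fold change (ARID1A-KO over WT, x axis) of each of the 10 genes with its SE, filled where the adjusted p was under 0.05, and the median of its tested neighbours within 5 Mb (diamonds). HMOX1 at 1.62 is the gene farthest from its neighbours' median, and SLC7A11, GSR, NFE2L2 and TXNRD1 lie within 0.1 of theirs.

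To show what lies upstream of both called and uncalled genes, the 250 bases before the RefSeq start of SLC3A2, GCLM, TXNRD1 and NQO1 (GRCh38.p14, not the build of the count tables) are printed. RefSeq promoters matched 6 of the 10 genes (SLC3A2, GCLC, GCLM, NFE2L2, NQO1 and TXNRD1). Only the first listed start of a gene was used, and its other starts were not searched. Each promoter was searched on both strands for the core of the antioxidant response element, TGACNNNGC, and for the ATF4 composite element, TGATGNAA. The first motif was found in 3 of the 6, against 11.0% of 27305 promoters of that length, and the second in none of the 6, against 3.19%. Capitals mark the antioxidant response element core.
SLC3A2, chromosome 11 from 62881449 to 62881698, plus strand: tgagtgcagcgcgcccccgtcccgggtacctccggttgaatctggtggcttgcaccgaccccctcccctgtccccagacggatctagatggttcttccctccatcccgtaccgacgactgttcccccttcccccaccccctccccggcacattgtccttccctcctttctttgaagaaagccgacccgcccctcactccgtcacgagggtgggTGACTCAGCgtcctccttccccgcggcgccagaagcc
GCLM, chromosome 1 from 93909431 to 93909680, minus strand: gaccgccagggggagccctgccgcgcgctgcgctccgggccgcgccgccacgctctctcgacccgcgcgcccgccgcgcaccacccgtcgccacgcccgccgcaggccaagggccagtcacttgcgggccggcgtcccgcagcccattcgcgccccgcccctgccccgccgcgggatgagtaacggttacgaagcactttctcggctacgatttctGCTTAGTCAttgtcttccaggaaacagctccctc
TXNRD1, chromosome 12 from 104215529 to 104215778, plus strand: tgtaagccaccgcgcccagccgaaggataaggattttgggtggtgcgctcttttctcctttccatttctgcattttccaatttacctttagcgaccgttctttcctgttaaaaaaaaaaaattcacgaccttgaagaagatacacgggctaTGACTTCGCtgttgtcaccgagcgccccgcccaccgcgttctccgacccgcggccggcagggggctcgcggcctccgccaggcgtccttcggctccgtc
NQO1, chromosome 16 from 69726561 to 69726810, minus strand: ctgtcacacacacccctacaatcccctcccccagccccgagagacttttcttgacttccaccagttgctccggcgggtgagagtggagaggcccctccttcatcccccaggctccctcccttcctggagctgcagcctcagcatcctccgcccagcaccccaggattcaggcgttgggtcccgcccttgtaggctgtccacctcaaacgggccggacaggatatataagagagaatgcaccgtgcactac

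Counted from the start of the gene, the match began at position -37 in SLC3A2, -34 in GCLM and -99 in TXNRD1, and in GCLM it was on the opposite strand. Of these 3 genes, SLC3A2 was higher in ARID1A-KO cells, and GCLM and TXNRD1 did not pass the test. NQO1, which was higher, held no match in this window. The promoters of SLC7A11, GSS, GSR and HMOX1 were not analysed here.

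Levels between genes were compared per length, as the TPM values that the authors made from the reverse-stranded counts. In WT cells the order ran from TXNRD1 (237 ± 16.4 TPM) through SLC3A2, GSS, NQO1, GSR, NFE2L2, HMOX1, GCLM and GCLC to SLC7A11 (15.7 ± 4.65 TPM, SD, n = 3). SLC3A2 and GSS, NFE2L2 and HMOX1, and GCLM and GCLC overlapped between samples, and the other neighbours in this order did not. In ARID1A-KO cells HMOX1 moved from rank 7 to rank 4, at 127 ± 10.5 TPM against 41.4 ± 8.32 in WT, and overlapped with NQO1 (109.5 ± 7.66 TPM). SLC7A11 stayed last, at 10.1 ± 0.562 TPM. The summed TPM of the 10 genes was 742 to 839 in WT and 926 to 995 in ARID1A-KO samples.

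Ratios of TPM values within a sample compared genes whose products pair or oppose each other, and 5 such ratios were computed. The ratio of SLC7A11 to SLC3A2 was 0.158, 0.107 and 0.11 in WT and 0.0644, 0.0569 and 0.0661 in ARID1A-KO replicates 3, 4 and 5. All knockout values lay below all WT values, with a mean log2 difference of -0.98 (pooled SD 0.24). The ratio of KEAP1 to NFE2L2 went from 1.44 ± 0.189 to 0.97 ± 0.0707 and that of BACH1 to NFE2L2 from 0.717 ± 0.0293 to 0.58 ± 0.0089 (SD, n = 3 each), again without overlap. That of GCLC to GCLM differed little, 0.948 ± 0.0438 against 0.895 ± 0.0215. For each of these 4 ratios the two-sided exact permutation p was 0.1, which is as low as 3 against 3 samples can reach, and 0.125 after Benjamini-Hochberg adjustment over the 5 ratios. The ratio of GSR to TXNRD1 overlapped between the genotypes (exact permutation p = 0.9).

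**Figure D4:**
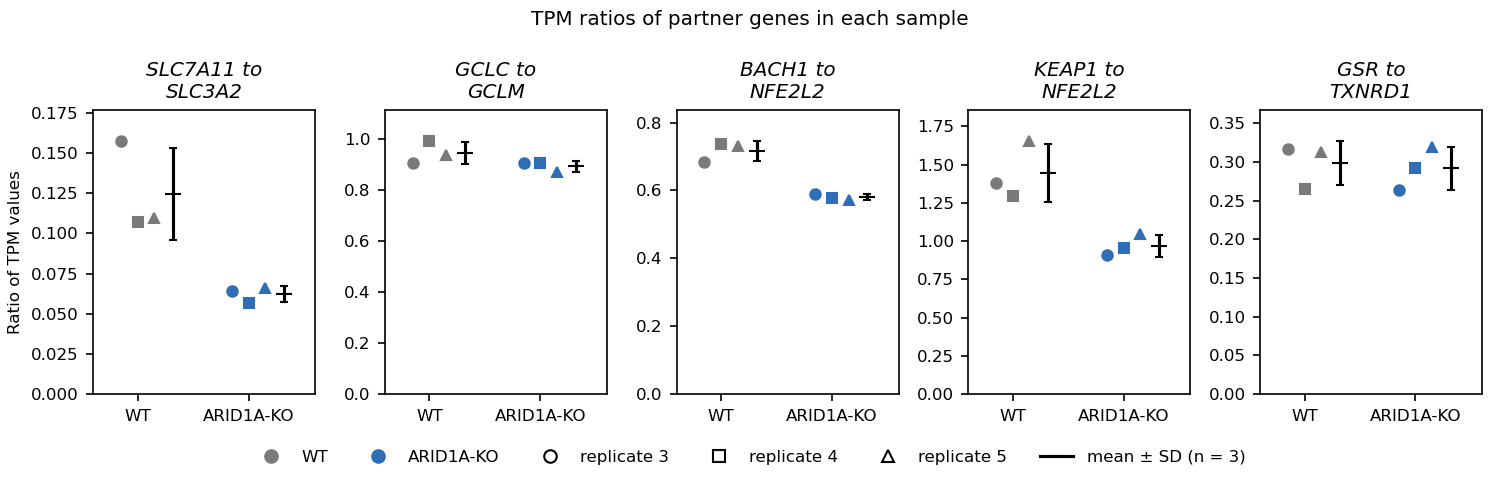
Ratios of TPM values (y axes, each from 0) in each WT (grey) and ARID1A-KO sample (blue), with symbols for the replicate numbers and bars for the mean ± SD (n = 3). The SLC7A11 to SLC3A2 ratio lies at 0.107 to 0.158 in WT and 0.0569 to 0.0661 in ARID1A-KO samples, while the GSR to TXNRD1 ratios overlap.

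Around the 10 genes, 7 lists of the wider pathway held 159 genes, of which 151 passed the filter on low counts and 66 were called, 36 higher and 30 lower. That is 43.7% of those tested, beside 36.3% of all genes, and their median log2 fold change was 0.021. The lists were chosen with earlier results of these data known, and 7 of the genes stand in more than 1 list.

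Of 17 NRF2 partners and regulators, 16 were tested, 4 were higher and 3 lower, and their median log2 fold change was 0.054. Calls made up 43.75% of those tested, beside 36.3% of all genes. KEAP1, the adaptor that sends NRF2 to degradation, went from 77.3 ± 7.69 to 57.4 ± 2.18 CPM (SD, n = 3 each), a log2 fold change of -0.43 (adjusted p = 0.00209, edgeR's quasi-likelihood test). Its 249 neighbours had a median of -0.27, and with it taken off -0.16 was left (adjusted p = 0.16). GSK3B, a kinase that marks NRF2 for another ubiquitin ligase, fell by 0.66 on the log2 scale. Its 56 neighbours had a median of -0.42, and subtracting it left -0.25 (adjusted p = 0.0271, edgeR). SQSTM1, which sequesters KEAP1, rose by 0.31. The small MAF partner MAFK rose by 0.26, a call lost without WT replicate 5, ARID1A-KO replicate 4 or ARID1A-KO replicate 5. BACH1 averaged 79.0 ± 2.87 CPM in WT and 70.6 ± 3.51 CPM in the knockout, without overlap, but a log2 fold change of -0.16 did not pass (adjusted p = 0.0708). Of the 7 calls in this list, leaving out WT replicate 3, WT replicate 5 or ARID1A-KO replicate 3 brought the count to 4, and leaving out ARID1A-KO replicate 4 brought it to 3. Calls over all genes also fell in these fits, from 7107 to between 5282 and 6009.

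Of 33 other NRF2 target genes, 32 were tested, 6 were higher, 4 were lower and 22 did not pass, with a median of 0.028. The share called was 31.25%, beside 36.3% of all genes. OSGIN1, an oxidative stress-induced growth inhibitor, had 14.7, 13.8 and 15.6 CPM in WT and 34.0, 37.2 and 32.5 CPM in ARID1A-KO replicates 3, 4 and 5, and rose by 1.23 on the log2 scale (SE 0.08, adjusted p = 3.93e-06, edgeR's quasi-likelihood test). The ferritin light chain FTL, which stores iron, rose by 0.72, from 912 ± 38.1 to 1505 ± 129 CPM. TRIM16L fell by 0.85 and thioredoxin (TXN) by 0.39 on the log2 scale. 

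**Figure D5:**
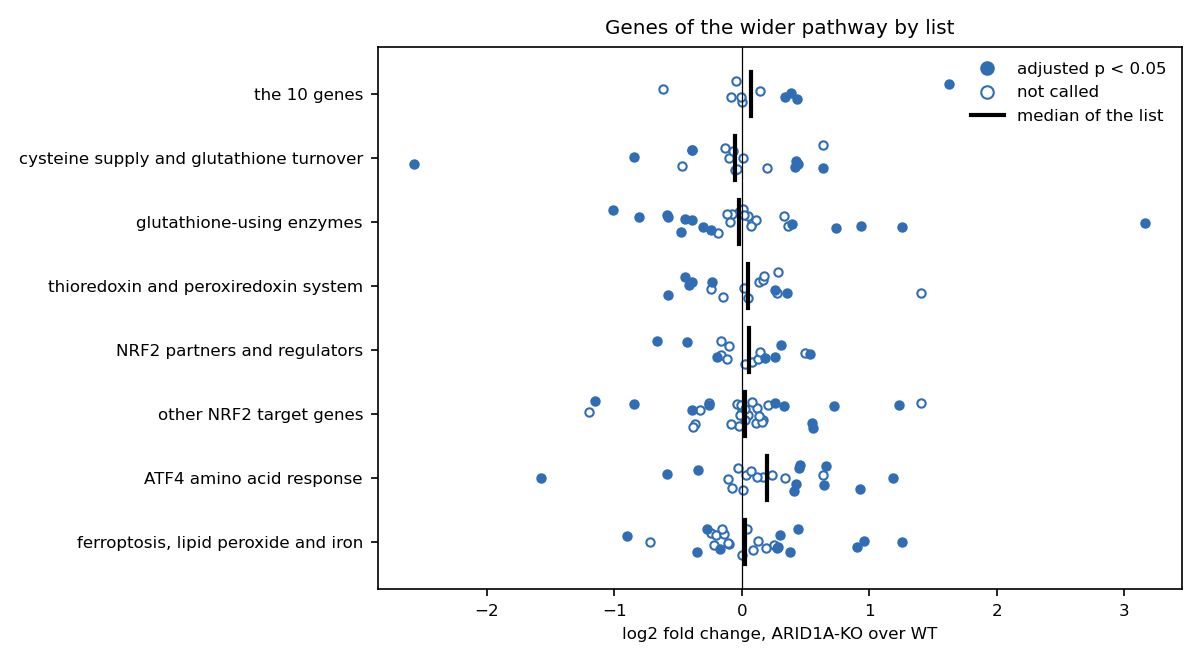
log2 fold change (ARID1A-KO over WT, x axis) of each tested gene in the 10 genes and the 7 wider lists, filled where the adjusted p was under 0.05, with a bar at the median of each list. The medians lie between -0.055 and 0.20, with called genes on both sides of 0 in each wider list.

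Of 30 enzymes that use glutathione, 27 were tested, 5 were higher, 9 were lower and 13 did not pass, with a median of -0.023. The share called was 51.9%, beside 36.3% of all genes. GPX4, which reduces lipid peroxides and so guards against ferroptosis, had 116, 122 and 119 CPM in WT and 273, 291 and 287 CPM in ARID1A-KO replicates 3, 4 and 5. GPX4 thus rose by 1.25 on the log2 scale (SE 0.06, adjusted p = 5.62e-07, edgeR's quasi-likelihood test), and its 187 neighbours had a median of 0.16. The omega-class transferase GSTO2 rose by 0.94, of which 0.54 was left once the median of its 87 neighbours (0.40) was subtracted. The secreted peroxidase GPX3 fell by 1.01 and the microsomal transferase MGST1 by 0.59 on the log2 scale. MGST1 was left with -0.35 (adjusted p = 0.00361, edgeR) once the median of its 52 neighbours (-0.23) was subtracted. GSTM1, also called higher, had 3, 1 and 0 counts in WT and 14, 9 and 19 counts in ARID1A-KO replicates 3, 4 and 5. Near-identical genes of its family may share these reads, so the value is uncertain, and it is named here after its values were seen.

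Of 18 genes of cysteine supply and glutathione turnover, 17 were tested, 4 were higher and 3 lower, with a median of -0.055. The calls were 41.2% of those tested, beside 36.3% of all genes. The lysosomal cystine exporter CTNS went from 12.5 ± 1.29 to 19.5 ± 0.966 CPM (SD, n = 3 each), a log2 fold change of 0.63 (adjusted p = 0.000547, edgeR). AHCY, which makes homocysteine for the transsulfuration route to cysteine, rose by 0.44. Subtracting the median of its 117 neighbours (0.22) left 0.23 (adjusted p = 0.0476, edgeR). ABCC1, which exports glutathione conjugates, fell by 0.39 on the log2 scale.

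In the thioredoxin and peroxiredoxin system, all 17 genes were tested, 2 were higher and 5 lower, with a median of 0.050. Calls made up 41.2%, beside 36.3% of all genes. The mitochondrial thioredoxin reductase TXNRD2 rose by 0.35 on the log2 scale. The methionine sulfoxide reductases MSRB3 and MSRB2 fell by 0.58 and by 0.45. The mitochondrial peroxiredoxin PRDX3 had a log2 fold change of 0.26, which turned to -0.18 once the median of its 57 neighbours (0.44) was taken off.

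The ATF4 amino acid response, which is switched on when cysteine or another amino acid is scarce, had 22 tested genes, 8 higher and 3 lower, with a median of 0.20. The calls were 50% of the list, beside 36.3% of all genes (17.9% higher and 18.4% lower). DDIT3, a transcription factor of prolonged stress, had 16.4, 17.3 and 14.5 CPM in WT and 41.8, 39.2 and 28.8 CPM in ARID1A-KO replicates 3, 4 and 5. DDIT3 thus rose by 1.19 on the log2 scale (SE 0.14, adjusted p = 0.000218, edgeR's quasi-likelihood test). SESN2, which restrains mTORC1 and aids KEAP1 removal, rose by 0.66, and NUPR1 fell by 1.57 on the log2 scale. VLDLR had -0.58, beside 36 neighbours with a median of -0.84, and its sign turned to 0.25 with that median taken off. This call was lost when WT replicate 3, WT replicate 4, ARID1A-KO replicate 3 or ARID1A-KO replicate 5 was left out. ATF4 itself averaged 383 ± 57.1 CPM in WT and 450.2 ± 81.3 CPM in the knockout, a log2 fold change of 0.23 that did not pass (adjusted p = 0.28, edgeR). It was 0.13 when WT replicate 5 was left out, 0.15 when ARID1A-KO replicate 3 was, and 0.38 with a call (adjusted p = 0.0234) when ARID1A-KO replicate 5 was. ATF4 was also called with no filter on low counts (adjusted p = 0.0343) and with the replicate number added to the fit as a block (0.0427). This list had 11 calls with all samples, 6 when WT replicate 3 or WT replicate 5 was left out, and 7 when ARID1A-KO replicate 3 or ARID1A-KO replicate 4 was. In these fits fewer genes were called over all, too (5282 to 6009, against 7107 with all samples).

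Among genes of ferroptosis, lipid peroxides and iron, 26 of 29 were tested, 8 were higher and 4 lower, with a median of 0.022. Calls made up 46.2% of those tested, beside 36.3% of all genes. Besides GPX4, the mitochondrial enzyme DHODH, which reduces ubiquinone, rose by 0.96, while its 149 neighbours had a median of 0.55. Subtracting it left 0.41 (adjusted p = 0.0189, edgeR). The surface peptidase DPP4 fell by 0.90 on the log2 scale, and -0.59 was left (adjusted p = 0.0178, edgeR) once the median of its 43 neighbours (-0.31) was subtracted. ACSL4, which feeds polyunsaturated fatty acids into membrane lipids, fell by 0.35 on the log2 scale, a call lost without WT replicate 4 or 5 and with the neighbours' median (-0.21) taken off (adjusted p = 0.296).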

How the data were processed

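RNA-seq libraries of 3 WT and 3 ARID1A-KO samples were sequenced with paired reads. The sample labels give polyA RNA, whereas the methods name a total RNA kit. The authors ran the Roddy workflow, in which STAR aligned the reads to GRCh37 and featureCounts assigned them to genes, and deposited the raw counts. They also deposited TPM values, which have the same total in each sample over all listed genes. Tool versions are not given in the sources used here. Of the 10 genes, 4 overlap another listed gene on the same strand, and how reads in the overlap were counted is not given.

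Genes were kept by filterByExpr on the reverse-stranded counts, which were scaled by TMM factors and tested with edgeR's quasi-likelihood test (edgeR 4.0.16, R 4.3.3) over all genes, with Benjamini-Hochberg adjustment and robust dispersion. Calls use an adjusted p under 0.05. DESeq2 1.42.0 was an alternative. The fits were tested on simulated data. An offset in the same fit took the neighbours' median off each gene. That median came from the same samples and was entered as a fixed value, so its error is not in the p-values. Columns of forward-strand and unstranded counts were used only in checks.

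The 10 genes and the lists were chosen with earlier results of these data known. Named genes are the 10, ARID1A, KEAP1, BACH1, ATF4, GPX4, the 3 genes most like SLC7A11, and up to 2 called genes per list and direction with the largest change, no overlap and a mean log2 CPM over 1. The marker PECAM1 was not analysed here.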

Additional observations from a re-analysis of the deposited data

How the results depend on the processing

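With 3 samples per genotype, the calls of SLC3A2 and GSS rest on single samples, and the direction of GCLM, TXNRD1 and the GSR to TXNRD1 ratio was not resolved. Over all results and alternatives, 690 values were classed as the same, 19 lost and 9 gained a call, 19 moved and 15 changed sign. A log2 fold change was classed by its sign and call only. A count was the same within a fixed ratio, and a TPM level or ratio within its SD. A value classed as the same could thus differ in size, as SLC7A11 did at -0.044 with the neighbours' median taken off. At an adjusted p under 0.01, 4467 genes were called over all, 2 of the 10, 3 NRF2 partners and regulators, 5 other NRF2 targets, 5 genes of the ATF4 response and 6 of ferroptosis. The log2 fold change of SLC7A11 was called with no filter on low counts (-0.62, adjusted p = 0.00458), at least 10 counts in every sample (-0.62, 0.0492) and DESeq2 (-0.62, 0.000929). Without the filter, the SE of SLC7A11 shrank from 0.20 to 0.15. The adjusted p of HMOX1 went from 0.000109 to 8.58e-65 in edgeR's test, at log2 fold changes of 1.62 and 1.61. Calls gained only in that fit, as for ATF4 and SLC7A11, thus need care. With the neighbours' median taken off, 6291 genes over all, 1 of the 10 genes (HMOX1) and 7 genes of the ATF4 response were called. The log2 fold change was then 0.29 for SLC3A2, 0.18 for GCLC, 0.10 for GCLM and 0.12 for GSS. It was -0.12 for NQO1, 0.056 for TXNRD1, -0.18 for PRDX3 and 0.25 for VLDLR. Counts without regard to strand gave 0.0014 for GCLM. The replicate block gave SLC7A11 -0.58 (adjusted p = 0.00217), GCLM 0.0015 and 7484 genes over all. Deviations of same-numbered samples correlated at -0.177 to 0.268, and 2 of 6 samples correlated best with their own number. With only 3 such pairs, this cannot decide whether the numbers pair the samples. With each sample left out in turn, 5282 to 7085 genes were called over all. These held 2 to 4 of the 10 genes, 3 to 7 NRF2 partners and regulators and 6 to 12 genes of the ATF4 response. The log2 fold change then ran from -0.80 to -0.39 for SLC7A11, 0.28 to 0.48 for SLC3A2, -0.037 to 0.061 for GCLM, 0.23 to 0.42 for GSS and -0.070 to 0.087 for TXNRD1, and the difference in the log2 ratio of GSR to TXNRD1 from -0.12 to 0.036. The cause of these changes was not tested.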

Other observations

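The genes whose log2 CPM over the 6 samples, centred on each gene's mean, lay closest to that of SLC7A11 were RP11-175O19.4, MIR17HG and KIAA2018, with root mean square differences of 0.114, 0.154 and 0.16, against a median of 0.408 over 13216 other genes. These 3 genes were picked as the closest, so a value far below the median was built in and does not measure their likeness. They lie on chromosomes 10, 13 and 3, and their log2 fold changes were -0.52, -0.86 and -0.58. SLC7A11-AS1, which overlaps SLC7A11 on the opposite strand, had 6, 3 and 10 counts in WT and 2, 0 and 5 counts in ARID1A-KO replicates 3, 4 and 5, too few to be tested. Forward-strand counts of the 10 genes came to at most 0.757% of their reverse-stranded counts in any sample.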
